A study of Rattus norvegicus with 6 samples.

Results

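miR-10a and miR-10b are a pair of closely related microRNAs whose genes lie inside the HOX clusters, the groups of developmental transcription factor genes that set position along the body axis. Rows of the deposited table named exactly miR-10a-5p or miR-10b-5p were taken, which gave 2 of the 763 mature rat miRNAs listed. The pair was picked because its members went opposite ways between the groups, so their levels below are a description of these libraries and carry no test. The libraries hold small RNA from exosomes, vesicles that cells release, isolated with a commercial reagent from the culture supernatant of wild-type rat mesenchymal stem cells of the line RBMSC. In 3 libraries the cells were untreated, and in 3 they had been given 200 µM nicorandil for 24 h before their medium was collected. Nicorandil, a drug given for angina, acts as a nitric oxide donor and as an opener of ATP-sensitive potassium channels. The cells have no genetic change, and the labels do not tell whether replicates of a group are separate cultures. The p-values set a group difference against the variation between replicates, and that variation may be only technical.

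A miRNA is cut from a hairpin precursor, and the mature strand guides silencing proteins to messenger RNAs that pair with its seed, bases 2 to 8 from the 5′ end. miR-10a and miR-10b are known as post-transcriptional regulators of HOX transcripts, and both are made in many mesenchymal and endothelial cells. In the RefSeq annotation of the rat assembly GRCr8, the nearest named coding genes on either side of Mir10a were Hoxb5 and Hoxb4. Mir10b lay within the span of Hoxd4, between Hoxd8 and Hoxd3. The sources used here do not name the genome build of the deposited table, so genes are placed by their neighbours only.

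The mature sequences are shown first because the whole comparison rests on telling these RNAs apart. They are RefSeq sequences, written 5′ to 3′ with the annotated seed in capitals:
miR-10a-5p: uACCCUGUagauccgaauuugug
miR-10b-5p: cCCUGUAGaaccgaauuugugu
The annotated miR-10b-5p starts 2 bases further into the shared stretch than miR-10a-5p. Over the 21 bases that both cover, 20 were identical, and the single difference was U12A, counted from the 5′ end of miR-10a-5p, with the miR-10a-5p base first. The hairpins are shown with the annotated 5p strand in capitals, to compare the bases just before its start:
Mir10a hairpin: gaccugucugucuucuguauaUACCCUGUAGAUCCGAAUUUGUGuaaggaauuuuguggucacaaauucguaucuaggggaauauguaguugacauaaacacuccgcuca
Mir10b hairpin: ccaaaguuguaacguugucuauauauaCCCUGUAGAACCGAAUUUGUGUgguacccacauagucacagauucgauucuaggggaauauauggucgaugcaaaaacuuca
The bases just before the annotated miR-10b-5p are the same "ua" with which miR-10a-5p begins. Read from that earlier start, the 23 bases of the Mir10b hairpin in register with miR-10a-5p differ from it only by U12A, and their seed is the same:
Mir10b hairpin in register: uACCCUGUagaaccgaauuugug
With the annotated starts, by contrast, no other listed miRNA among the 686 with a RefSeq sequence shared the seed of either member. A read of one member therefore differs from a read of the other by 1 internal base, and where it starts. The sources used here do not give the number of mismatches allowed in alignment, or the rule for a read that matches both. How far reads were moved between the pair in counting was not tested.

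Depth bears on every value below. The untreated libraries held 2212 to 2338 miRNA reads and the nicorandil libraries 8426 to 16628, recovered as whole reads from the deposited values, so depth differed 6.11-fold with the treatment and the effects of the one cannot be told apart from those of the other. The 10 mesenchymal marker miRNAs, chosen with earlier results of these data known, all had reads. Of these, miR-145-5p had 0 reads in each untreated library and 16, 23 and 7 in the nicorandil libraries. Together the 10 took 27.3% to 28.0% of the reads in untreated and 26.2% to 31.3% in nicorandil libraries. miR-143-3p, a smooth muscle and mesenchymal miRNA, had 1527 of the 1868 untreated reads of this list. It had 10227 of the 12474 nicorandil reads, so the sum mostly follows this miRNA. Among all 121 miRNAs tested, 17 were higher (14% of those tested) and 9 lower (7.44%) after nicorandil by limma with a Benjamini-Hochberg adjusted p under 0.05. With library totals as the scale these numbers were 4 (3.31%) and 11 (9.09%), and the median log2 difference of all 121 moved from 0.23 to -0.12. In exosomes, fewer vesicles from one kind of cell and less of a miRNA in each vesicle cannot be told apart.

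miR-10a-5p, the HOXB-cluster member, was scarce in exosomes of nicorandil-treated cells and moderately abundant in those of untreated cells. Its deposited value, a read count that the authors adjusted to a common library size and called normalized reads here, was 28.8, 30.1 and 54.4 in the untreated libraries. In the nicorandil libraries it was 1.79, 4.36 and 3.06. Every nicorandil library lay below every untreated one, and untreated replicate 3 stood well above the other untreated libraries. The group means were 37.8 ± 14.4 and 3.07 ± 1.28 normalized reads (SD, n = 3), a 12.3-fold lower mean after nicorandil, and the difference of the mean log2(value + 1) was -3.24. In the authors' deposited table its log2 fold change is -3.57. Groups that did not overlap in this direction were found for 10.7% of all tested miRNAs, and since the member was chosen on this contrast nothing is read from that share.

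The reads behind these values were few. Untreated libraries held 14, 13 and 28 reads of miR-10a-5p. The much deeper nicorandil libraries held 6, 10 and 4. Fewer reads were thus found where more were sequenced, 55 against 20 in all. As a share of all miRNA reads, miR-10a-5p took 0.629%, 0.588% and 1.20% of the untreated libraries. It took 0.0361%, 0.0613% and 0.0475% of the nicorandil libraries. The 95% Wilson interval was 0.0333% to 0.113% for the highest nicorandil share and 0.344% to 1.00% for the lowest untreated share. The labels name no molecular identifiers, and amplified reads are not independent, so these intervals cover counting error only. They are no test of the groups. On this scale 21.5% of all tested miRNAs had groups that did not overlap with nicorandil lower. By number of reads miR-10a-5p ranked between 17 and 31 among the miRNAs of an untreated library and between 76 and 95 in a nicorandil library.

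miR-10b-5p, the HOXD-cluster member, was the more abundant of the pair and differed far less between the groups. Its deposited values were 52.8, 61.9 and 56.6 normalized reads in untreated libraries. In nicorandil libraries they were 69.9, 100.9 and 110.0. The groups did not overlap, but nicorandil replicate 1 lay nearer to the untreated libraries than to the other nicorandil ones. The means were 57.1 ± 4.56 and 93.6 ± 21.0 (SD, n = 3), a 1.64-fold higher mean after nicorandil, with a difference of 0.68 on the log2(value + 1) scale. In the authors' deposited table its log2 fold change is 0.71. Groups that did not overlap with nicorandil higher were found for 17.4% of all tested miRNAs, and again nothing is read from that share.

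**Figure D1:**
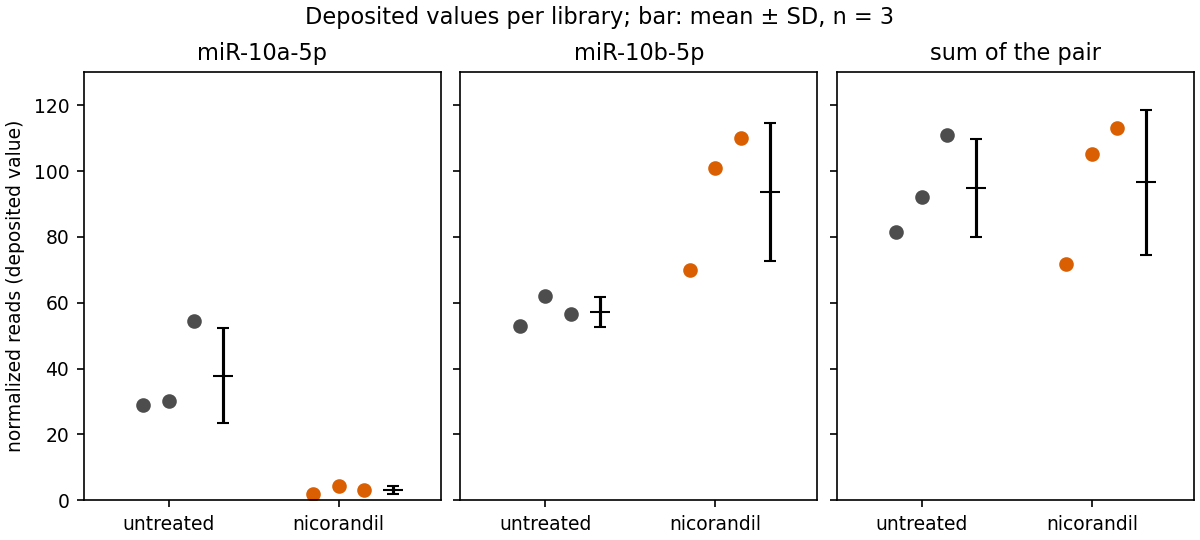
Deposited values (normalized reads, linear axis) of miR-10a-5p, miR-10b-5p and their sum in the 3 untreated (grey) and 3 nicorandil (orange) libraries, with the mean ± SD of each group as a black bar. miR-10a-5p lies at 1.79 to 4.36 after nicorandil against 28.8 to 54.4, miR-10b-5p at 69.9 to 110.0 against 52.8 to 61.9, and the sums of the groups overlap.

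On the scale of read shares, the difference of miR-10b-5p shrank and its groups overlapped. It had 27, 29 and 27 reads in untreated and 192, 253 and 142 in nicorandil libraries. These were 1.21%, 1.31% and 1.15% of the untreated libraries. They were 1.15%, 1.55% and 1.69% of the nicorandil libraries. Nicorandil replicate 1, with 192 of 16628 reads, was thus about level with the lowest untreated library, with 27 of 2338, while replicates 2 and 3 lay above the untreated range. The mean shares were 1.23% ± 0.0789 and 1.46% ± 0.276 (SD, n = 3), a ratio of 1.19. On this scale 9.09% of all tested miRNAs were separated with nicorandil higher. With library totals the log2 difference of miR-10b-5p was 0.24, against 0.68 on the deposited scale. A change of scale shifts all miRNAs of a library the same way, but by less for those with few reads on the log2(value + 1) scale. It thus moves miR-10b-5p in the direction of the median of all tested miRNAs, though not equally. On the deposited scale miR-10b-5p lay 0.45 above that median, and miR-10a-5p was at -3.47 from it. With library totals these distances were 0.35 and -3.45.

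**Figure D2:**
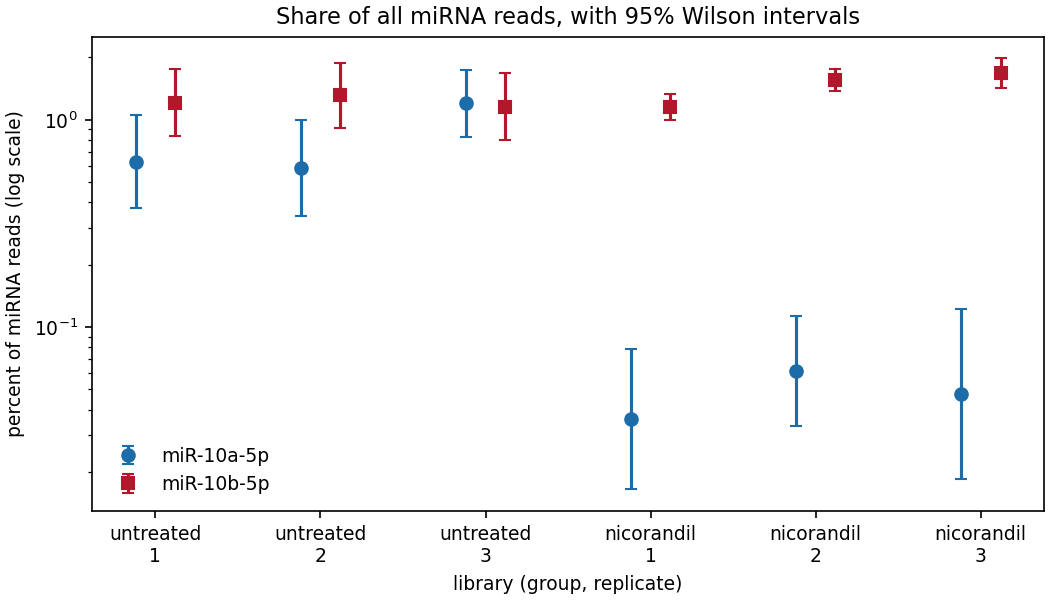
Share of all miRNA reads (percent, log axis) taken by miR-10a-5p (blue circles) and miR-10b-5p (red squares) in each library, with 95% Wilson intervals for counting error. The miR-10a-5p shares are 0.588% to 1.20% in untreated and 0.0361% to 0.0613% in nicorandil libraries, while the miR-10b-5p shares overlap between the groups at 1.15% to 1.31% and 1.15% to 1.69%.

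The balance within the pair needs no scaling between libraries, since both members are read in the same library. miR-10a-5p made up 34.1%, 31.0% and 50.9% of the pair's reads in untreated libraries. In nicorandil libraries it made up 3.03%, 3.80% and 2.74%. In untreated replicate 3 the members were about level, with 28 reads of miR-10a-5p and 27 of miR-10b-5p, and in every other library miR-10b-5p was the more frequent. The mean split went from 38.7% ± 10.7 to 3.19% ± 0.549 (SD, n = 3). The 95% Wilson interval was 19.1% to 46.0% for the lowest untreated share and 2.08% to 6.86% for the highest nicorandil share, again for counting error only. Put as a ratio, there were 0.964 to 2.23 reads of miR-10b-5p per read of miR-10a-5p in untreated libraries and 25.3 to 35.5 in nicorandil libraries. The nicorandil ratios rest on 6, 10 and 4 reads of miR-10a-5p. Whether depth affects the ratio was not tested.

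**Figure D3:**
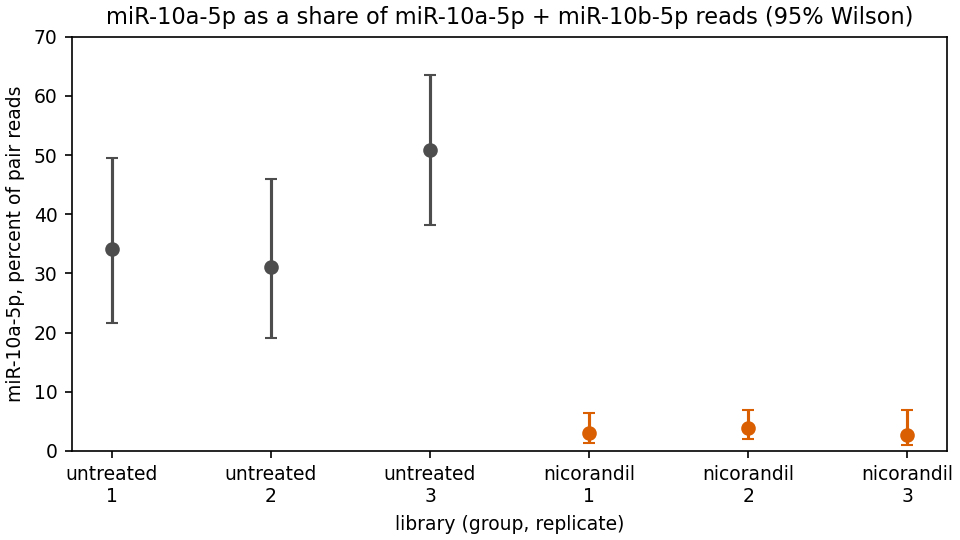
miR-10a-5p as a percent of the reads of miR-10a-5p and miR-10b-5p together in each library (linear axis from 0), with 95% Wilson intervals. Untreated libraries lie at 31.0% to 50.9% and nicorandil libraries at 2.74% to 3.80%.

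The sum of the pair does not depend on how reads were split between its members, provided that each read was counted once. The sources used here do not tell whether a read that matches both was counted once, for both or not at all. Summed normalized reads were 81.6, 92.0 and 111.0 in untreated libraries. They were 71.6, 105.2 and 113.1 in nicorandil libraries. The groups overlapped and the means, 94.9 ± 14.9 and 96.6 ± 22.0 (SD, n = 3), differed by less than the spread between replicates. As a share of all reads the pair took 2.03% ± 0.279 and 1.51% ± 0.284, with the untreated libraries at 1.84% to 2.35% and the nicorandil libraries at 1.19% to 1.73%. On that scale the groups did not overlap and the sum was lower after nicorandil, so the direction of the sum depends on the scale. With library totals 21.5% of single tested miRNAs were separated with nicorandil lower. The sum also includes miR-10a-5p, chosen on this contrast, so nothing is read from its separation.

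The opposite arms of the hairpins, which are usually degraded, were almost unseen. miR-10a-3p had no read in any library, and miR-10b-3p had 1 read in nicorandil replicate 1 and 1 in replicate 3. A count of 0 allows a share of up to 0.128% to 0.136% of an untreated library and 0.018% to 0.0356% of a nicorandil library. Neither arm reached the mean of 1 normalized read needed for a test, so the contrast of the 5p strands could not be followed in the 3p strands at this depth.

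The other miRNAs of the HOX clusters are miR-196a, miR-196b and miR-196c, which repress HOX transcripts such as Hoxb8, and miR-615. The 5p strands of the miR-196 genes are shown because they share 1 seed, in capitals:
miR-196a-5p: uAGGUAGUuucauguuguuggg
miR-196b-5p: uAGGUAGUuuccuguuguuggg
miR-196c-5p: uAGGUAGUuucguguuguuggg
In RefSeq Mir196c lay in the HOXB cluster with Mir10a, between Hoxb13 and Hoxb9. Mir196a lay between Hoxc10 and Hoxc9, Mir196b between Hoxa9 and Hoxa10, and Mir615 within the spans of Hoxc5 and Hoxc6. Of the 9 miRNAs on this list, 5 had a read and 2 could be tested, of which 0 were higher and 0 lower in limma, 0 also at an unadjusted p under 0.05 and 0 in edgeR's quasi-likelihood test. Over all tested miRNAs limma called 14% higher and 7.44% lower, so no call among 2 is near that background. miR-196a-5p had 1 read in each untreated library and 1, 6 and 1 in the nicorandil libraries, with a log2 difference of -0.72 (SE 0.70, limma adjusted p = 0.641) that lay between -1.27 and -0.26 with 1 library left out. miR-196b-5p had 4, 0 and 0 untreated reads and 4, 0 and 2 nicorandil reads, with a log2 difference of -0.34 (SE 0.79, limma adjusted p = 0.86). The median of both was -0.53, against 0.23 over all 121 tested. The only HOXB-cluster strand beside miR-10a-5p with a read was miR-196c-5p, with 1 read, in nicorandil replicate 3. miR-615 also had 1 read, in nicorandil replicate 1. With so few reads, differences in these miRNAs were not detectable at this depth.

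miR-10a-5p and miR-10b-5p belong in a broad sense to the same sequence family as miR-99, miR-100 and miR-125, whose genes lie outside the HOX clusters and partly in clusters shared with let-7. These relatives are shown to place the pair's own sequence, again with the seed in capitals:
miR-99b-5p: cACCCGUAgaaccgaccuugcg
miR-100-5p: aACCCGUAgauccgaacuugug
miR-125a-5p: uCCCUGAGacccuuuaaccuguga
miR-125b-5p: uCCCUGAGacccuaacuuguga
Placed without gaps on miR-10a-5p, miR-100-5p had 19 of 22 bases identical and miR-99b-5p 15 of 22. miR-99a-5p is the remaining relative. Of these 5 relatives all were tested, 4 rose with nicorandil, 0 fell and 1 did not pass, where 14% of all tested miRNAs were called higher and 7.44% lower. Their median log2 difference was 0.95, against 0.23 over all tested miRNAs. With library totals 1 of the 5 passed, upward, where 3.31% of all tested miRNAs did, and the median was 0.50 against -0.12. The list was chosen with earlier results of these data known and is no independent evidence of its direction.

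Among the relatives, miR-99a-5p had 86.8, 88.6 and 84.1 normalized reads in untreated libraries and 153.3, 163.4 and 162.7 in nicorandil libraries. It rose by 0.88 on the log2 scale (SE 0.15, limma adjusted p = 0.00045), a call lost with library totals (limma adjusted p = 0.0636). miR-99b-5p rose from 34.4 ± 0.567 to 67.8 ± 10.9 (SD, n = 3; limma adjusted p = 0.00284). Its call was lost with library totals (limma adjusted p = 0.137) and in DESeq2 (adjusted p = 0.0915). miR-100-5p rose from 17.8 ± 5.07 to 36.6 ± 7.14 (SD, n = 3; limma adjusted p = 0.0149). Its call was lost with library totals, with median-of-ratios scaling and in DESeq2 (adjusted p = 0.326, 0.129 and 0.297), and in limma without untreated replicate 3 or nicorandil replicate 1 or 2 (adjusted p = 0.0546, 0.0927 and 0.0918). miR-125a-5p rose by 1.27 (SE 0.20, limma adjusted p = 0.000309) and passed in every one of 16 alternatives. miR-125b-5p, at 38.3 ± 9.39 and 69.3 ± 34.2 (SD, n = 3), did not pass (limma adjusted p = 0.102).

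**Figure D4:**
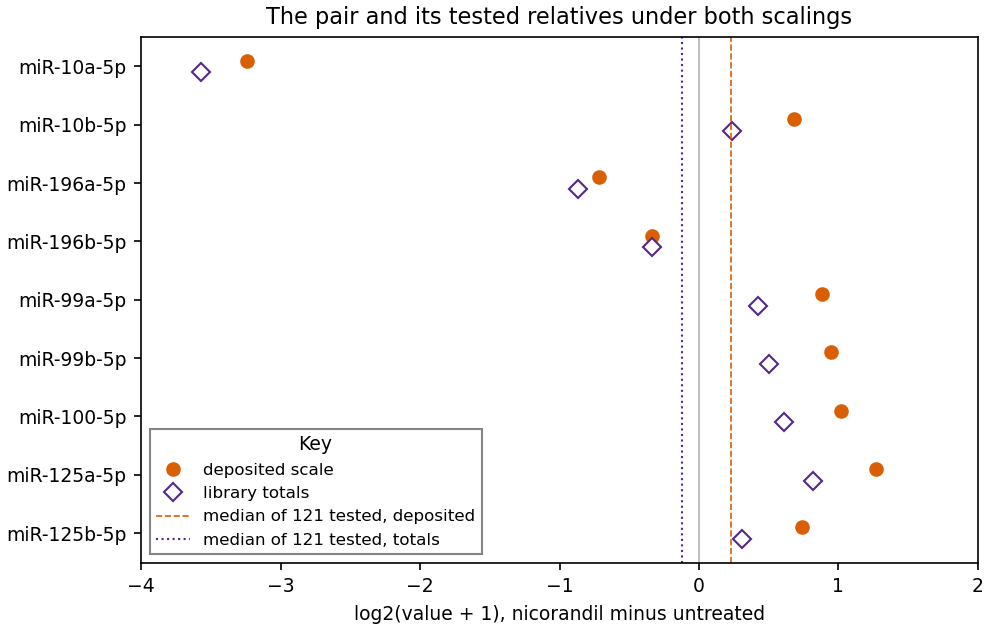
Difference of mean log2(value + 1), nicorandil minus untreated, for the pair and the 7 tested relatives on the deposited scale (orange circles) and with library totals (open violet diamonds), with the median of all 121 tested miRNAs on each scale as a vertical line. miR-10a-5p lies at -3.24 and -3.57, miR-10b-5p at 0.68 and 0.24, and the 5 relatives by sequence at 0.74 to 1.27 on the deposited scale.

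The composition of the family, like the split of the pair, needs no scaling between libraries. Of the reads of all 7 family strands together, miR-10a-5p took 8.92%, 9.29% and 19.4% in untreated libraries. It took 0.449%, 0.744% and 0.639% in nicorandil libraries. miR-10b-5p took 17.2%, 20.7% and 18.8% in untreated and 14.4%, 18.8% and 22.7% in nicorandil libraries, groups that overlapped. Its means, 18.9% ± 1.76 and 18.6% ± 4.16 (SD, n = 3), differed by less than the spread between replicates. miR-10b-5p thus held a similar part of the family's reads in both groups, within that spread, while miR-10a-5p held a smaller part in each nicorandil library than in any untreated one. The total includes miR-10a-5p, so its smaller part after nicorandil raises the part of every other strand, miR-10b-5p included.

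Outside the family, the miRNAs whose levels ran most like those of miR-10a-5p over the 6 libraries were miR-200b-3p, an epithelial miRNA, miR-126a-3p, an endothelial one, and miR-192-5p, a miRNA of liver and intestine. Pearson's r of log2(value + 1) was 0.976, 0.971 and 0.942. These figures describe 6 libraries that differ in group and depth together, and miR-200b-3p and miR-126a-3p rest on 11 and 19 untreated reads. For miR-10b-5p the nearest were miR-296-3p, miR-423-5p and miR-320-3p, with r of 0.95, 0.934 and 0.909. The first of these had no untreated read and 18 nicorandil reads. Between the members themselves r was -0.761, and since they were picked for going opposite ways, nothing is read from its sign.

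Markers of cell types other than mesenchymal cells were lower in the same libraries as miR-10a-5p. The 3 liver and gut markers together took 1.44% to 2.61% of the reads in untreated and 0.463% to 0.617% in nicorandil libraries. Endothelial markers, 1 of 2 with a read and miR-126a-5p at 0, took 0.181% to 0.36% and 0.0301% to 0.0356%. The 5 epithelial markers took 0.181% to 0.385% and 0.0119% to 0.0301%, from 20 and 10 reads. Of these reads miR-200b-3p had 11 and 4, and it was lower (limma adjusted p = 0.0086), while miR-200a-3p did not pass (limma adjusted p = 0.203). miR-200c-3p, miR-429 and miR-141-3p had too few reads for a test, and the only read of miR-141-3p was in nicorandil replicate 1. Blood cell markers, 6 of 7 with a read and miR-150-5p at 0, took 0.678% to 0.854% and 0.263% to 0.415%. Within the blood cell list miR-486 fell by 1.20 on the log2 scale (limma adjusted p = 0.0238), while miR-451-5p at -0.27 and miR-142-5p at 0.36 did not pass and their groups overlapped. The summed shares of these 4 lists did not overlap between the groups. On this scale 21.5% of single tested miRNAs were separated with nicorandil lower. The mesenchymal shares did overlap. As summed normalized reads, however, the mesenchymal list was at 1178.5 to 1340.5 in untreated and 1702.3 to 2005.1 in nicorandil libraries, higher without overlap. Most of that sum was miR-143-3p, with means of 1050 normalized reads in untreated and 1541 in nicorandil libraries. On that scale 17.4% of single tested miRNAs were separated with nicorandil higher, and the 4 other lists stayed lower. Untreated replicate 3, which held the most miR-10a-5p, also had the largest share of the liver and gut and of the epithelial markers among untreated libraries, but not of the endothelial or blood cell markers. The epithelial shares were 0.315%, 0.181% and 0.385% in untreated replicates 1, 2 and 3, from 20 reads in all, which are too few to order these libraries. The part of such RNA in the levels of miR-10a-5p was not tested.

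**Figure D5:**
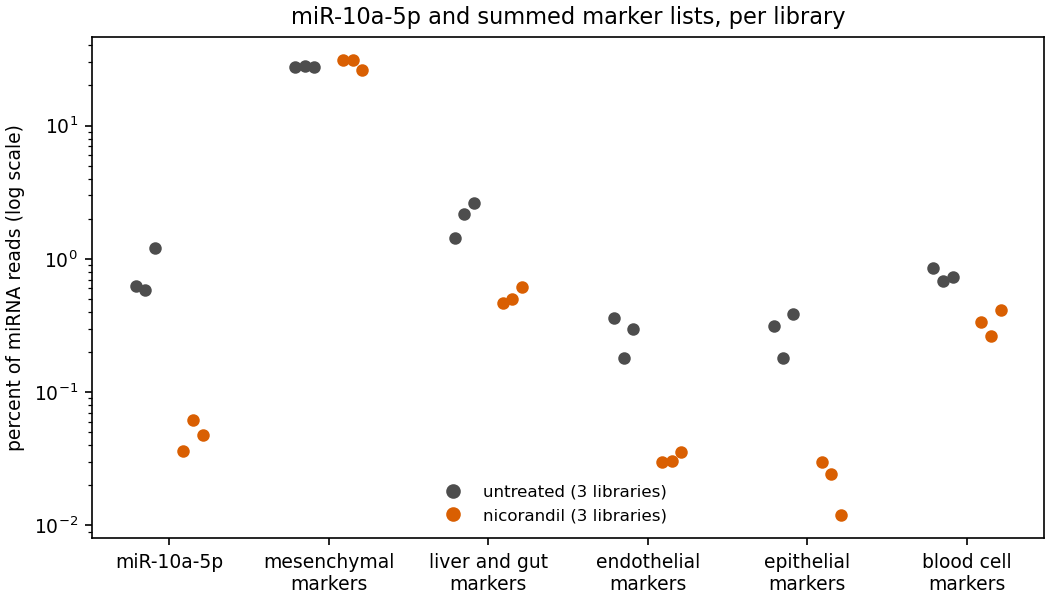
Percent of miRNA reads (log axis) of miR-10a-5p and of 5 summed marker lists in the 3 untreated (grey) and 3 nicorandil (orange) libraries, 1 point per library. miR-10a-5p and the liver and gut, endothelial, epithelial and blood cell lists are lower in each nicorandil library. The mesenchymal list overlaps on this scale of shares, at 27.3% to 28.0% and 26.2% to 31.3%.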

How the data were processed

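Small RNA libraries of exosomes were sequenced single-end. FastQC, Bowtie and edgeR were used, per the submitters' processing notes; the sources used here do not give versions, genome build or miRNA annotation. The deposited values are a normalized read signal in the form of edgeR pseudo-counts, in which each library is adjusted to 1 common size. Inverting that adjustment (common dispersion 0.0272) gave whole reads for 100% of the 763 miRNAs at a relative tolerance of 1e-05, and pseudo-counts recomputed from them differed from the deposited values by at most 4.8e-07. The log2 fold changes and p-values in the authors' deposited table are theirs, per the file headers; the p-values were not used.

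limma 3.58.1 (R 4.3.3) with an intensity trend was applied to log2(value + 1) of 121 miRNAs whose mean value reached 1. Differences on this scale understate those of miRNAs with few reads. No test was made on the pair. Shares and splits used recovered reads with 95% Wilson intervals, and a count of 0 was given a limit of 3 reads. Alternatives were other pseudocounts, filters and scalings, edgeR 4.0.16 and DESeq2 1.42.0 on recovered reads, a block for the replicate number, and leaving out each library; TMM-scaled reads were added after seeing the data. The fitting was tested on simulated data. Members and lists were chosen with earlier results of these data known. The miRNAs named are the pair, the HOX-cluster and sequence-family lists, the marker lists and the 3 miRNAs most correlated with each member. Sequences were in RefSeq for all named family members but miR-99a-5p.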

Additional observations from a re-analysis of the deposited data

How the results depend on the processing

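The 26 miRNAs called (17 higher, 9 lower) became 15 with library totals (4 and 11), 15 with median-of-ratios scaling (6 and 9) and 14 in DESeq2 (5 and 9). Leaving out 1 library gave 11 to 21, the lowest without nicorandil replicate 2 (6 and 5). The difference of miR-10a-5p was -1.83 with a pseudocount of 10 and -3.84 in DESeq2, and -3.47 to -2.95 with 1 library left out. That of miR-10b-5p was 0.24 with library totals and 0.55 to 0.87 with 1 library left out. The difference in the miR-10a-5p share of the pair, -35.5 percentage points, was -39.3 to -29.4 with 1 library left out. Pseudocounts and scalings change these values by construction; for DESeq2 the cause was not tested. miR-196a-5p and miR-196b-5p, never called, ranged from -1.27 to -0.26 and from -0.73 to 0.46 with 1 library left out, and miR-196a-5p was at -1.83 with a pseudocount of 0.1. miR-125b-5p passed in 4 alternatives: without a filter, with the replicate block, and without untreated replicate 1 or nicorandil replicate 3. A filter at a mean of 10 left out miR-196a-5p and miR-196b-5p, and DESeq2 gave them no adjusted p. Same-numbered libraries did not deviate together (r of 0.01, 0.04 and -0.03). With few reads per miRNA counting error alone brings r near 0, so whether the numbers pair the libraries cannot be told. The replicate block gave 26 calls. The 4 to 28 reads of miR-10a-5p per library limit the precision of its values.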
